A study of Mus musculus with 24 samples.

Results

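Tubulin is the protein that microtubules are built from. Alpha and beta tubulin pair into dimers that add to and leave the ends of the microtubule, and the alpha and beta proteins are each made from several genes, the isotypes, which differ most in the acidic tail at the end of the protein. In heart muscle cells, microtubules run between the myofibrils, resist contraction and carry cargo, and dense networks with a removed tail tyrosine are known from failing hearts. Many dividing and migrating cells that enter an injured heart use the same genes.

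The 10 genes described were chosen by symbol: the alpha isotypes Tuba1a, Tuba1b, Tuba1c, Tuba4a and Tuba8, and the beta isotypes Tubb2a, Tubb2b, Tubb3, Tubb5 and Tubb6. All 10 of them were found among the 46078 genes of the count table, 9 by their symbol and Tubb3 by its Ensembl identifier (ENSMUSG00000062380), because its row carried no symbol. All 10 passed the filter on low counts.

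The hearts came from male C57BL/6 mice aged 10 weeks, and polyadenylated RNA of the ventricular apex was taken at day 5. DTR_PYR hearts had a diphtheria toxin injury and pyridostigmine, a drug that blocks the enzymes that break down acetylcholine, and DTR_PBS hearts had the injury and the vehicle PBS. WT_PYR hearts had no toxin and the drug, and WT_PBS hearts had no toxin and the vehicle. There were 6 animals in each of the 4 groups. DTR commonly abbreviates diphtheria toxin receptor, which admits the toxin into mouse cells; the cell type that carried the receptor is not stated in the labels. Genotype and toxin moved together, so "injury" covers both.

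Libraries held between 1.88 and 37.8 M counts, and 3 held under 3 M, namely DTR_PBS 4, DTR_PYR 2 and DTR_PYR 3. On the first principal component of all tested genes the DTR_PBS libraries lay between 30.3 and 114 and the WT libraries between −57.2 and −35.1. DTR_PYR libraries 1 to 3 lay between 41.0 and 104, while DTR_PYR 4, 5 and 6 lay at −35.4, −25.6 and −20.9, apart from the other injured hearts. Calls that change without these libraries are given with and without them. DTR_PYR 4, 5 and 6 were set apart by their own expression, so a call made without them is not separate support. CPM below are counts scaled to a common library size. The summed CPM of 8 cardiomyocyte markers was 18308 to 53795 in DTR_PBS and 70113 to 76054 in WT_PBS hearts, and all 8 markers were detected in every library. Because the tissue was sequenced in bulk, fewer cells of a type and less RNA per cell cannot be told apart.

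The tails set the members apart, so the last 45 coding bases of 7 members are shown, read from the GENCODE vM21 transcripts on GRCm38, with the last codon before the stop in capitals.
Tuba1c: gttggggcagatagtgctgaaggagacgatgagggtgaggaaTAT
Tuba4a: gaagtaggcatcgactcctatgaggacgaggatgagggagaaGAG
Tuba8: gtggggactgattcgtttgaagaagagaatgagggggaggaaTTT
Tubb2a: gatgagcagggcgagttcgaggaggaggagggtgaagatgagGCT
Tubb2b: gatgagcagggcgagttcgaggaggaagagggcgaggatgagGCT
Tubb3: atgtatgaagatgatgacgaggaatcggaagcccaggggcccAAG
Tubb5: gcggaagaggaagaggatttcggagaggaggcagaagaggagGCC
The capitals of Tuba1c encode tyrosine, the residue that vasohibins remove and tubulin tyrosine ligase restores, and the last codons of Tuba1a and Tuba1b do too. Tuba4a ends on a glutamate codon and Tuba8 on a phenylalanine codon, so neither encodes the tail tyrosine. The beta tails shown end on alanine codons except that of Tubb3, which ends on a lysine codon.

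The start of the coding sequence matters for a second reason. Cells degrade tubulin mRNAs when free dimers build up, and the decay factor TTC5 recognises the first residues of the new chain on the ribosome. The first 12 coding bases were atgcgtgagtgc in Tuba1a, Tuba1b and Tuba1c, atgcgcgagtgc in Tuba4a and atgagggaatgc in Tuba8. They were atgcgcgagatc in Tubb2a, atgcgagagatc in Tubb2b, atgagggagatc in Tubb3 and atgagggaaatc in Tubb5, so within the alpha and the beta members these starts differed only at synonymous bases.

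The genes lie apart on the mouse genome (GRCm38, GENCODE vM21), apart from 2 clusters. Tuba1a (chr15:98949837-98953703), Tuba1b (chr15:98931425-98934565) and Tuba1c (chr15:99029891-99038110) are neighbours, and so are Tubb2a (chr13:34074274-34078007) and Tubb2b (chr13:34126748-34130466). Tuba4a is at chr1:75214228-75219865, Tuba8 at chr6:121210696-121226854, Tubb3 at chr8:123411424-123422015, Tubb5 at chr17:35833921-35838306 and Tubb6 at chr18:67390717-67402749. Reads of several members are hard to assign to 1 gene. Coding identity was 98.3% between Tuba1a and Tuba1b, 97.9% between Tuba1b and Tuba1c and 96.5% between Tubb2a and Tubb2b, against 79.2% to 86.0% for the pairs outside these clusters. Of the 50-base stretches of the longest coding transcript, 75.5% of Tuba1a, 83.1% of Tuba1b, 61.0% of Tuba1c, 49.6% of Tubb2a, 39.3% of Tubb2b, 48.8% of Tuba4a and 14.7% of Tuba8 also occurred in another gene. No such stretch of Tubb3 or Tubb6 did, and 0.115% did for Tubb5. The labels do not say how reads that match several genes were counted, so the split within each cluster is uncertain. The level of a cluster as a whole is uncertain too, where genes outside it share its sequence. The counts are not strand-specific, and Tuba4a shares 1379 of its 3701 exon bases with Stk16 on the opposite strand. Stk16 had 6820 counts over the 24 libraries, against 39037 to 57653 counts of Tuba4a in each group. The labels do not say how reads over both genes were counted. The level per kilobase and the share of Tuba4a may thus be too low, and the Stk16 count does not measure this. Tuba8 shares 368 exon bases with the antisense gene Gm15856, which had 81 counts.

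Levels of different genes were set side by side only as CPM per kilobase of exon. In DTR_PBS hearts Tuba4a was highest at 163 ± 88.4, followed by Tubb5 at 110.0 ± 22.2, Tuba1b at 78.5 ± 28.7, Tuba8 at 74.2 ± 45.03 and Tubb6 at 54.7 ± 13.3 CPM per kilobase (SD, n = 6). Below them came Tuba1a at 37.2 ± 11.8, Tubb2a at 33.7 ± 6.499, Tuba1c at 13.5 ± 5.06, Tubb3 at 7.45 ± 2.50 and Tubb2b at 4.44 ± 1.42 CPM per kilobase. Neighbours in this order overlapped in their libraries except at the step between Tubb2a and Tuba1c. In WT_PBS hearts Tuba4a was again highest at 173 ± 41.1, and Tuba8 came second at 64.9 ± 17.7 CPM per kilobase, with no overlap between them. Tubb5 followed at 39.1 ± 8.81, Tuba1b at 28.0 ± 7.73, Tuba1a at 17.4 ± 2.20, Tubb6 at 14.8 ± 2.99 and Tubb2a at 12.1 ± 2.27 CPM per kilobase. Tuba1c at 4.02 ± 0.986, Tubb2b at 0.802 ± 0.102 and Tubb3 at 0.721 ± 0.187 CPM per kilobase closed the order, and Tubb2b and Tubb3 overlapped.

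**Figure D1:**
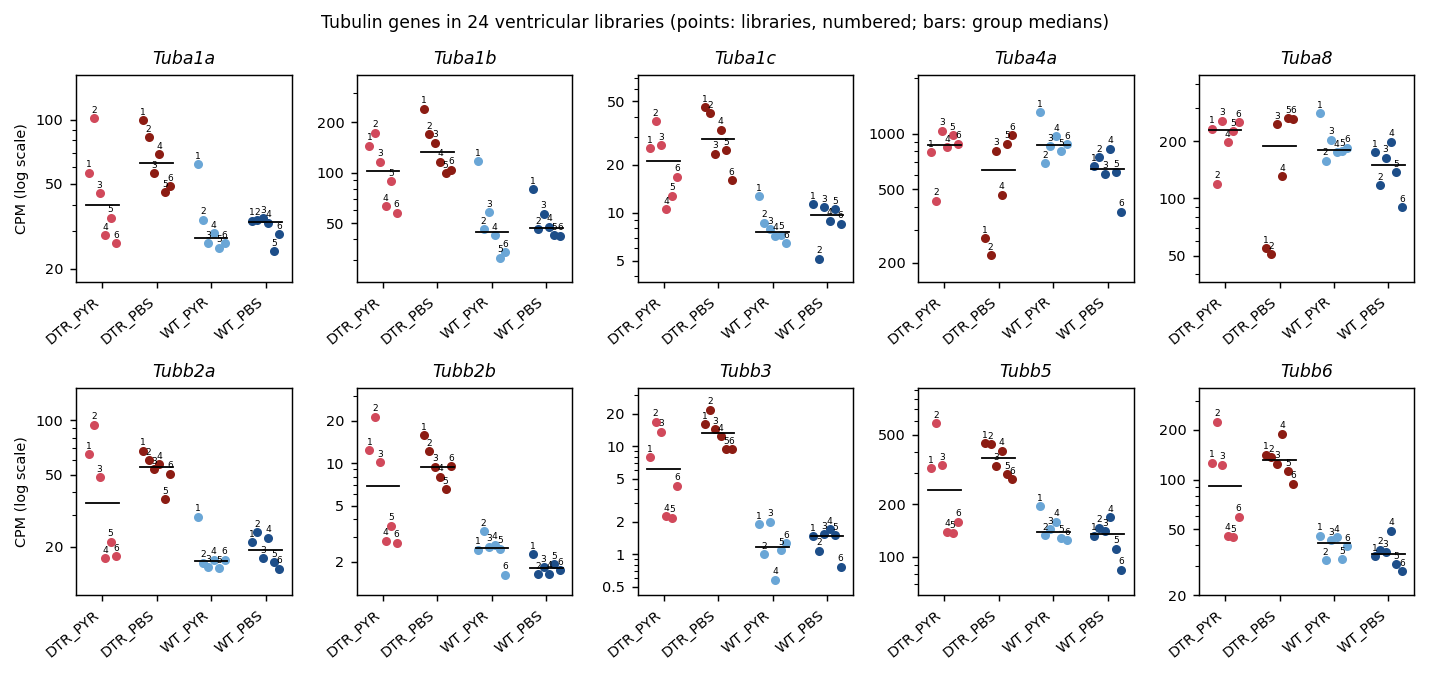
CPM of each tubulin gene (log scale) in every library, with groups DTR_PYR, DTR_PBS, WT_PYR and WT_PBS from left to right; points are libraries with their number and bars are medians. Tubb3 lies between 9.38 and 21.8 CPM in DTR_PBS hearts, above the 0.769 to 1.71 CPM of WT_PBS hearts, while DTR_PBS libraries lie below and above the WT_PBS hearts for Tuba4a and Tuba8.

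The first comparison asked how injury under the vehicle related to tubulin mRNA. Of the 10 members, 8 rose in DTR_PBS against WT_PBS hearts by edgeR's quasi-likelihood test at a Benjamini-Hochberg adjusted p under 0.05, and 0 fell. Of all 15456 genes tested, 21.3% rose and 21.6% fell in this comparison. The same 8 had no overlap between the groups' libraries, against 11.2% of all genes that were higher without overlap. Tuba1a, Tuba1b and Tuba1c share sequence, and so do Tubb2a and Tubb2b. The members counted here and below are therefore not all separate signs. The members' median log2 fold change was 1.49, and that of all genes was 0.01. The members that did not pass were Tuba4a and Tuba8, the alpha isotypes without a tail tyrosine codon.

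Tubb3 had the largest difference among the members. It is the beta isotype known best as a marker of neurons, and it is also made in some dividing and malignant cells. It ranged from 9.38 to 21.8 CPM with a median of 13.4 in DTR_PBS hearts, against 0.769 to 1.71 with a median of 1.48 CPM in WT_PBS hearts. The groups did not overlap. The log2 fold change was 3.38 ± 0.44 (SE; adjusted p = 1.15e-05, edgeR). The 12 neuron markers were read beside it. They summed to 8.88 to 13.1 CPM in DTR_PBS and 9.16 to 15.5 CPM in WT_PBS hearts, and most of the sum was Uchl1 (6.69 CPM in DTR_PBS and 8.08 CPM in WT_PBS hearts) and Dbh. Rarer markers differed in the other direction. Th, which makes the precursor of dopamine, averaged 0.422 CPM in DTR_PBS and 0.0119 CPM in WT_PBS hearts, without overlap, and did not pass the filter. Nefm, a neurofilament subunit, averaged 0.743 CPM in DTR_PBS and 0.302 CPM in WT_PBS hearts and was tested (log2 fold change 1.14, adjusted p = 0.12, edgeR). Chat was at 0 in all DTR_PBS hearts, and Syt1 and Chat were at 0 in all WT_PBS hearts. Of the 3 neuron markers that passed the filter, Dbh, which makes noradrenaline, fell (log2 fold change −1.24, adjusted p = 0.0208, edgeR) and 0 rose. The part of neurons in the Tubb3 difference was not tested.

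The other beta isotypes followed in size. Tubb2b, abundant in the developing brain, had 6.502 to 15.7 CPM (median 9.44) in DTR_PBS and 1.63 to 2.26 CPM (median 1.79) in WT_PBS hearts. Its log2 fold change was 2.47 ± 0.40 (adjusted p = 5.13e-05, edgeR), and its paralog Tubb2a had one of 1.48 ± 0.32 (adjusted p = 0.00058). Both genes were higher in each of the 6 injured hearts than in any uninjured one, with Tubb2a at 36.5 to 67.6 CPM in DTR_PBS and 15.1 to 24.2 CPM in WT_PBS hearts. Tubb6, a widely made isotype that loosens microtubule networks when overproduced in cultured cells, had 94.6 to 189 CPM (median 131) in DTR_PBS and 28.0 to 49.0 CPM (median 35.5) in WT_PBS hearts. Its log2 fold change was 1.88 ± 0.29 (adjusted p = 4.02e-05, edgeR). Tubb5 is the main beta isotype of most tissues and was the most abundant beta member here. It had 277 to 447 CPM (median 369) in DTR_PBS and 84.0 to 168 CPM (median 136) in WT_PBS hearts, a log2 fold change of 1.49 ± 0.27 (adjusted p = 0.000161, edgeR). None of the 5 beta members overlapped between the groups.

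Among the alpha isotypes, the 3 with a tail tyrosine codon rose. Tuba1b, an alpha isotype made in nearly all cells, had 99.4 to 241 CPM (median 134) in DTR_PBS and 42.0 to 79.9 CPM (median 46.9) in WT_PBS hearts. Its log2 fold change was 1.49 ± 0.31 (adjusted p = 0.000462, edgeR). Tuba1c had 16.01 to 45.9 CPM (median 28.9) in DTR_PBS and 5.16 to 11.3 CPM (median 9.70) in WT_PBS hearts, a log2 fold change of 1.73 ± 0.28 (adjusted p = 5.88e-05). Tuba1a, the alpha isotype of young neurons, had 45.6 to 99.96 CPM (median 62.6) in DTR_PBS and 24.2 to 34.5 CPM (median 33.2) in WT_PBS hearts, a log2 fold change of 1.10 ± 0.28 (adjusted p = 0.0025). Since reads may be exchanged among these 3 genes, their sum is the firmer quantity. It was 89.1 to 204 CPM per kilobase in DTR_PBS and 40.5 to 66.2 CPM per kilobase in WT_PBS hearts, again without overlap.

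Tuba4a and Tuba8 behaved otherwise and varied most among the DTR_PBS hearts. Tuba4a is an alpha isotype of platelets and striated muscle, and Tuba8 is made mainly in muscle and testis. Tuba4a had 271, 220, 806, 466, 881 and 979 CPM in DTR_PBS 1 to 6, against 666, 742, 607, 825, 616 and 378 CPM in WT_PBS 1 to 6. Tuba8 had 54.8, 50.9, 245, 131, 264 and 263 CPM in the same DTR_PBS libraries, against 175, 117, 164, 199, 137 and 89.7 CPM in the WT_PBS libraries. DTR_PBS 1 and 2 were below every WT_PBS heart for both genes, while DTR_PBS 5 and 6 were above every one. The fitted log2 fold changes were −0.08 ± 0.29 for Tuba4a (adjusted p = 0.848, edgeR) and 0.19 ± 0.32 for Tuba8 (adjusted p = 0.664). Their intervals of 2 SE, from −0.66 to 0.50 and from −0.45 to 0.83, leave room for a moderate difference in either direction. The sign for Tuba4a turned without DTR_PBS 1 (0.07), without DTR_PBS 2 (0.09) and without WT_PBS 4 (0.01).

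The cardiomyocyte and dividing-cell sums set DTR_PBS 1 and 2 apart from the other DTR_PBS hearts, as Tuba4a and Tuba8 did. Not every sum or member did so, since the Schwann cell sum and Tubb6 were highest in DTR_PBS 4. The cardiomyocyte sum was 18310 and 19980 CPM in DTR_PBS 1 and 2, 29520 in DTR_PBS 4, and 48700, 47620 and 53790 in DTR_PBS 3, 5 and 6, the libraries with more Tuba4a and Tuba8. The sum of 10 genes of dividing cells was 49.1 to 298 CPM in DTR_PBS and 6.27 to 24.2 CPM in WT_PBS hearts, highest in DTR_PBS 1 and 2, and all 10 genes rose. The sum of 8 macrophage markers was 406 to 1257 CPM in DTR_PBS and 152 to 220.0 CPM in WT_PBS hearts, and that of 6 activated fibroblast markers was 2738 to 7490 CPM in DTR_PBS and 335 to 869 CPM in WT_PBS hearts; all 14 of these genes rose. The 6 platelet markers summed to 21.6 to 89.9 CPM in DTR_PBS and 9.64 to 15.6 CPM in WT_PBS hearts, mostly Pf4 (42.4 CPM in DTR_PBS and 9.41 CPM in WT_PBS hearts), and 2 of the 4 tested rose. Other sums were lower without overlap. The 7 endothelial markers summed to 680 to 881 CPM in DTR_PBS and 1258 to 1454 CPM in WT_PBS hearts, and 6 fell. The 6 fibroblast markers summed to 852 to 1448 CPM in DTR_PBS and 1687 to 2636 CPM in WT_PBS hearts, with 1 rising and 2 falling, and the 8 smooth muscle and pericyte markers to 523 to 655 CPM in DTR_PBS and 806 to 1476 CPM in WT_PBS hearts, with 1 rising and 3 falling. The 7 Schwann cell markers summed to 13.3 to 23.9 CPM in DTR_PBS and 11.3 to 15.1 CPM in WT_PBS hearts, and 2 of the 6 tested rose. These marker counts stand beside 21.3% of all genes that rose and 21.6% that fell. The part of these cell types in the tubulin differences was not tested.

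**Figure D2:**
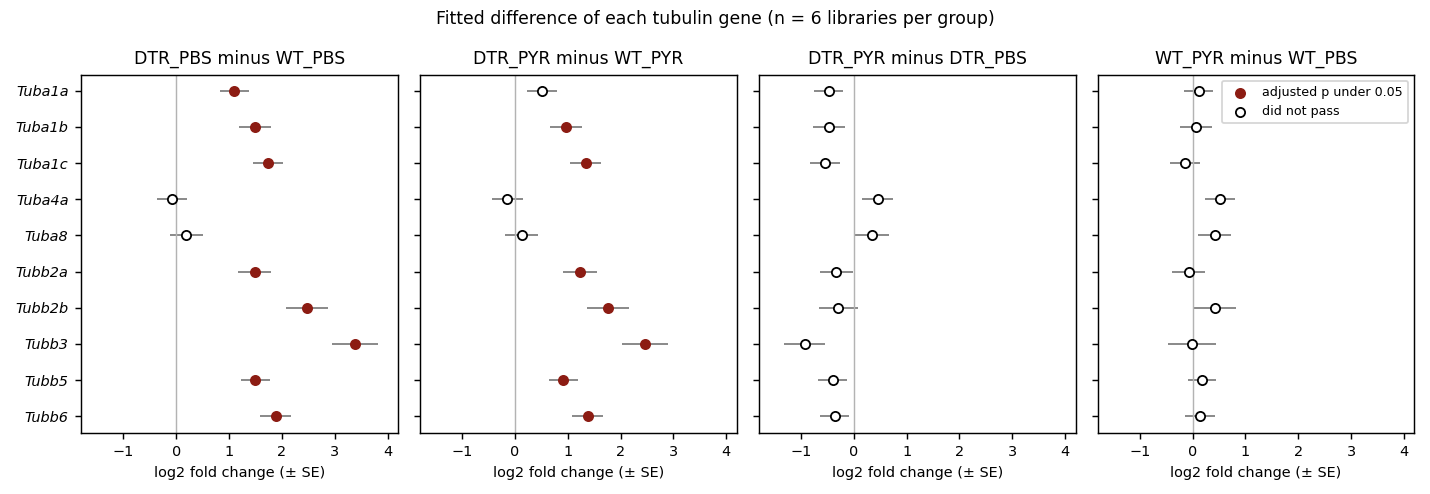
Fitted log2 fold change of each tubulin gene (points, with bars of 1 SE; n = 6 libraries per group) in 4 comparisons; filled points passed an adjusted p under 0.05. Under PBS 8 genes were higher in injured hearts and under PYR 7, and the drug comparisons have no filled point.

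The second comparison set injured against uninjured hearts that both had the drug. It shares no library with the first, but both were fitted together over all 24 libraries with a shared estimate of the spread. Of the 10 members, 7 rose in DTR_PYR against WT_PYR hearts and 0 fell, while 8.06% of all genes rose and 4.17% fell. Tubb3 was the 1 member without overlap between the groups, against 2.19% of all genes that were higher without overlap. Tubb3 had 7.95, 16.9, 13.6, 2.27, 2.19 and 4.32 CPM in DTR_PYR 1 to 6, and 0.585 to 2.01 CPM in WT_PYR hearts (log2 fold change 2.46 ± 0.44, adjusted p = 0.00161, edgeR). Tubb2b (1.76 ± 0.39, adjusted p = 0.00674), Tubb6 (1.37 ± 0.29, 0.00466), Tuba1c (1.33 ± 0.29, 0.00528) and Tubb2a (1.23 ± 0.32, 0.0148) rose as well. Tuba1b (0.97 ± 0.31, adjusted p = 0.0397) and Tubb5 (0.91 ± 0.27, 0.0299) lay nearer the threshold. Tuba1a (0.51 ± 0.28, adjusted p = 0.218), Tuba4a (−0.15 ± 0.29, 0.776) and Tuba8 (0.12 ± 0.32, 0.829) did not pass.

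DTR_PYR hearts fell into a high and a low set for the rising members. Tubb5 had 320, 579 and 335 CPM in DTR_PYR 1 to 3 and 139, 136 and 159 CPM in DTR_PYR 4 to 6, against 125 to 195 CPM in WT_PYR hearts. Tubb6 had 127, 224 and 123 CPM in DTR_PYR 1 to 3 and 45.8, 44.96 and 59.7 CPM in DTR_PYR 4 to 6, against 32.5 to 45.7 CPM in WT_PYR hearts. In DTR_PYR 4 to 6 Tuba1a, Tuba1b, Tubb2a and Tubb5 were within the WT_PYR range, whereas Tubb3 was above it in all 3. The top of that range was WT_PYR 1 for the first 4 genes. WT_PYR 2 to 6 reached 17.0 CPM of Tubb2a, below the 17.3, 21.3 and 17.8 CPM of DTR_PYR 4, 5 and 6. They reached 58.2 CPM of Tuba1b, below the 63.3 and 89.1 CPM of DTR_PYR 4 and 5, and DTR_PYR 5 for Tuba1a and DTR_PYR 6 for Tubb5 also lay above them. The same 3 libraries had 20.5, 23.1 and 25.6 CPM of the dividing-cell genes, against 49.5 to 157 CPM in DTR_PYR 1 to 3, and 210.2 to 214 CPM of macrophage markers, against 456.5 to 1329 CPM. WT_PYR hearts had 131 to 201 CPM of macrophage markers. Cardiomyocyte markers summed to 65690, 59880 and 57270 CPM in DTR_PYR 4, 5 and 6, against 71407 to 79805 CPM in WT_PYR hearts. Endothelial markers summed to 1228, 1115 and 1008 CPM there, against 1246 to 1482 CPM in WT_PYR hearts. The dividing-cell, fibroblast and smooth muscle sums of DTR_PYR 4 and 5 were within the WT_PYR range. The labels do not say whether DTR_PYR 4, 5 and 6 received the same injury. Without these 3 libraries 8 members rose, while 5027 genes (32.5% of all tested) were called in either direction. Tuba1a was among the 8 (log2 fold change 1.001, adjusted p = 0.0076, edgeR), and Tubb3 differed by 3.24. The 3 libraries were picked by their expression, so leaving them out favours larger injury differences and adds no support to these calls.

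The calls under PYR rest on few libraries. Without the libraries under 3 M counts, which takes out DTR_PYR 2 and 3, 1 of the 10 members passed, among 100 genes in all, and with limma voom 3 did, among 787 genes. Fitted on only the libraries of this comparison, 4 passed, among 1220 genes. With DTR_PYR 1 left out 4 passed, among 744 genes, and with DTR_PYR 2 left out 4, among 750 genes. Tuba1b lost its call when any of DTR_PYR 1, 2 or 3 or WT_PYR 2 to 6 was left out, with adjusted p up to 0.123. Tubb5 lost it without DTR_PYR 1, 2 or 3 or WT_PYR 2, 4, 5 or 6, with adjusted p up to 0.137, and Tubb2a without DTR_PYR 1 or 2, up to 0.0685.

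The drug comparisons asked whether pyridostigmine altered these genes. They share their groups with the injury comparisons, so the values are given side by side and not as separate evidence. In injured hearts, 0 of the 10 members passed in DTR_PYR against DTR_PBS, and 0% of all genes did by edgeR. Tubb3 had the lowest unadjusted p, with 2.19 to 16.9 CPM (median 6.14) in DTR_PYR and 9.38 to 21.8 CPM (median 13.4) in DTR_PBS hearts. Its log2 difference was −0.93 ± 0.39 (adjusted p = 0.199, edgeR), and it was the 1 member with an unadjusted p under 0.05, against 19.4% of all genes. The other rising members had log2 differences of −0.55 to −0.29, while Tuba4a had 0.45 ± 0.29 and Tuba8 0.35 ± 0.32. DESeq2 called 0 members among 239 genes, and limma voom called 2 members, Tubb3 and Tubb2b, among 1765 genes.

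This comparison depended on the libraries kept. Of the libraries left out singly, only DTR_PYR 2 changed the call of any member. Without DTR_PYR 2, the injured heart with the most Tubb5 and Tubb6, 5 members were called lower in DTR_PYR hearts, among 2404 genes called in either direction. These were Tubb3 (−1.34, adjusted p = 0.0231, edgeR), Tuba1a (−0.82, 0.0269), Tubb5 (−0.75, 0.0309), Tubb6 (−0.74, 0.0379) and Tuba1c (−0.78, 0.0494). Without DTR_PYR 4, 5 and 6, 0 members were called, and Tuba1a (0.01), Tubb2a (0.35), Tubb2b (0.49), Tubb5 (0.17) and Tubb6 (0.25) turned to positive differences. The direction of these 5 differences thus changed with the libraries kept.

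In uninjured hearts, 0 of the 10 members passed in WT_PYR against WT_PBS, and 0% of all genes did. None of the members had an unadjusted p under 0.05 by edgeR, DESeq2 called 0 members among 1 gene, and voom called 0. Tuba4a had 690 to 1303 CPM (median 865) in WT_PYR and 378 to 825 CPM (median 641) in WT_PBS hearts, a log2 difference of 0.52 ± 0.29 (adjusted p = 0.998, edgeR). Tuba8 and Tubb2b each had 0.42, and the other members lay between −0.15 and 0.18. The interaction, which asks whether the injury difference changed with the drug, called 0 of the 10 members and 0% of all genes. Its estimates ran from −0.92 ± 0.60 for Tubb3 to −0.06 ± 0.41 for Tuba4a, with 0 members and 7.96% of all genes at an unadjusted p under 0.05 by edgeR. Here DESeq2 called 9 genes and 0 members, and voom 0.

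The isotype mix follows from the levels per kilobase and carries their uncertainty about which gene a read belongs to. The 5 beta members summed to 163 to 250 CPM per kilobase in DTR_PBS and 47.3 to 86.2 in WT_PBS hearts, without overlap. The 5 alpha members summed to 237 to 470 CPM per kilobase in DTR_PBS and 184 to 359 in WT_PBS hearts, and these ranges overlapped. The alpha sum was 1.88 ± 0.84 times the beta sum in DTR_PBS and 4.25 ± 0.35 times in WT_PBS hearts (SD, n = 6), with the highest injured heart at 2.89 and the lowest uninjured one at 3.89. It was 3.53 ± 1.88 times in DTR_PYR and 5.18 ± 0.44 times in WT_PYR hearts, with DTR_PYR 1 to 3 at 2.21, 0.978 and 2.55 and DTR_PYR 4 to 6 at 5.02, 5.79 and 4.63. The beta sum leaves out Tubb4b, which is not among the members and averaged 198 CPM in DTR_PBS and 106 CPM in WT_PBS hearts. The ratios and the shares below therefore hold for the listed members only, not for all alpha and beta tubulin. These ratios describe mRNA, and protein was not measured.

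The 3 alpha genes with a tail tyrosine codon made up 39.7% ± 22.0 of the alpha sum in DTR_PBS and 17.6% ± 3.68 in WT_PBS hearts. Their share was 67.7% and 65.5% in DTR_PBS 1 and 2, 38.5% in DTR_PBS 4, and 27.2%, 20.1% and 19.1% in DTR_PBS 3, 5 and 6, against 13.3% to 22.9% in WT_PBS hearts. DTR_PBS 5 and 6 lay within the WT_PBS range. The share was 23.5% ± 13.6 in DTR_PYR and 12.98% ± 3.12 in WT_PYR hearts, from 13.1% in DTR_PYR 6 to 49.4% in DTR_PYR 2. Tuba4a alone was 41.7% of the alpha sum in DTR_PBS and 59.9% in WT_PBS hearts. Among the beta members, without Tubb4b, Tubb5 was 52.3% of the sum in DTR_PBS and 57.6% in WT_PBS hearts. Tubb3 was 3.51% of it in DTR_PBS and 1.07% in WT_PBS hearts.

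**Figure D3:**
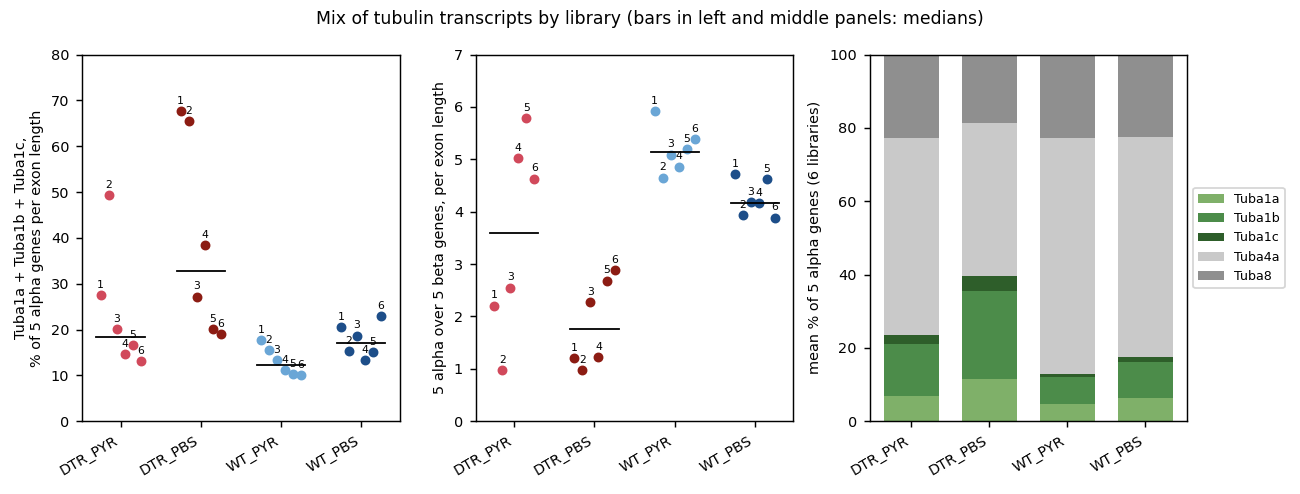
Left, percent of the summed level of the alpha members (CPM per kilobase of exon) from the 3 genes with a tail tyrosine codon. Middle, summed level of the alpha members over that of the beta members. Points are libraries, bars medians. Right, mean percent of each alpha gene over 6 libraries; DTR_PBS 1 and 2 reach 67.7% and 65.5% on the left, above the 13.3% to 22.9% of WT_PBS hearts.

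The rest of the microtubule system was read from 13 lists with 116 genes, of which 99 passed the filter. Under PBS 17 of them rose and 17 fell in injured hearts, where 21.3% of all genes rose and 21.6% fell. Under PYR 10 rose and 3 fell, where 8.06% of all genes rose and 4.17% fell. The counts of single lists below stand beside the same shares of all genes. Scaling by total counts gave 36 higher and 5 lower under PBS, and 14 higher and 2 lower under PYR. That scaling moved the median of all genes to 0.39 under PBS and 0.19 under PYR, and the 8 members kept their calls under PBS with it. The lists as a whole had a median log2 fold change of −0.05 under PBS and 0.06 under PYR, while the 10 members had 1.49 and 1.10.

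**Figure D4:**
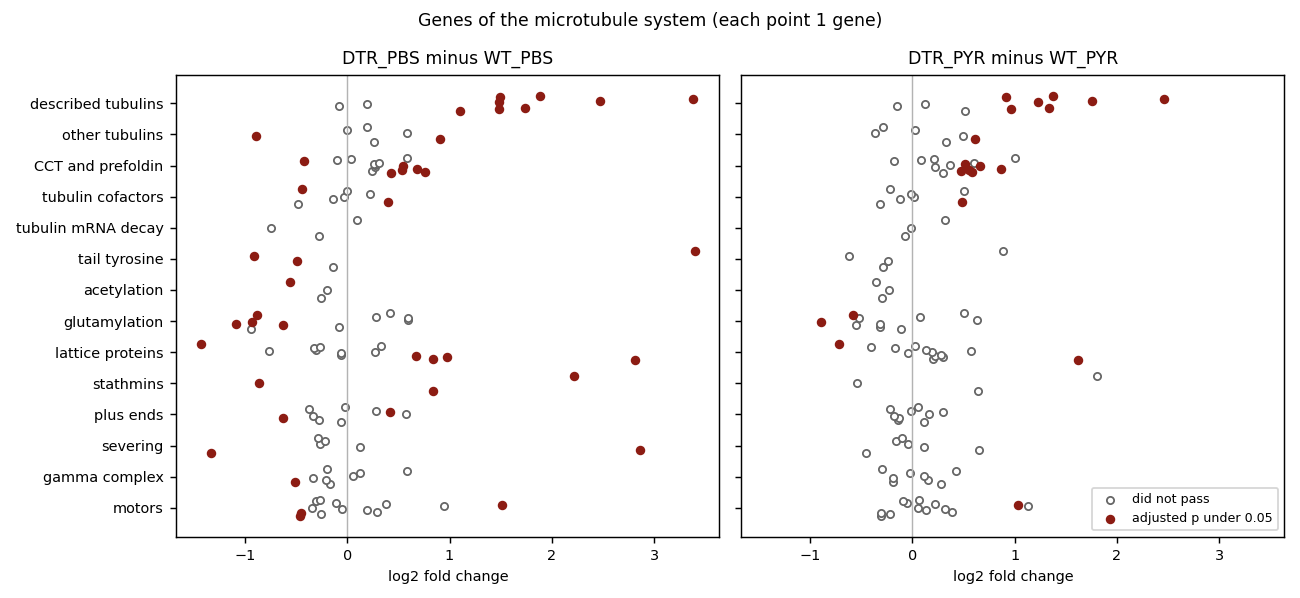
Log2 fold change of each tested gene of the microtubule system by list, for DTR_PBS minus WT_PBS (left) and DTR_PYR minus WT_PYR (right); each point is 1 gene, filled where the adjusted p was under 0.05. The described tubulins reach 3.38 on the left and 2.46 on the right, and most lists hold genes on both sides of 0.

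Among the other tubulins 6 of 10 were tested. Tubb4b, a widely made beta isotype also used in cilia, rose under PBS (198 ± 59.4 CPM in DTR_PBS and 106 ± 23.1 CPM in WT_PBS hearts, log2 fold change 0.90, adjusted p = 0.000778, edgeR). It rose under PYR too (0.61, adjusted p = 0.0441). Tubd1, delta tubulin of the centriole, fell under PBS (−0.89, adjusted p = 0.00718). Tubb1, the beta isotype of platelets, did not pass the filter on low counts.

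New tubulin chains fold in the CCT chaperonin with the help of prefoldin, and cofactors then join alpha to beta. Of 14 CCT and prefoldin genes, 5 rose and 1 fell under PBS, and 6 rose under PYR. Of all genes, 21.3% rose and 21.6% fell under PBS, and 8.06% rose under PYR. Cct3 (log2 fold change 0.76, adjusted p = 0.00154, edgeR) and Cct5 (0.53, 0.00265) rose under PBS, and Pfdn5 fell (−0.43, 0.00733). Cct5 (0.55, adjusted p = 0.0116), Cct6a (0.87, 0.0202) and Cct8 (0.66, 0.0279) rose under PYR. Of the 7 cofactors, Tbca, which holds beta tubulin, rose under PBS (0.40, adjusted p = 0.0448) and under PYR (0.48, 0.0474). Tbcel, which destabilises tubulin, fell under PBS (−0.44, 0.0117).

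The decay factors of tubulin mRNA did not pass in either injury comparison by edgeR with TMM scaling. Under PBS the log2 fold change was 0.10 for Ttc5 (adjusted p = 0.622, edgeR), −0.75 for Scaper (0.0503) and −0.28 for Cnot11 (0.105). Scaper, which links TTC5 to the deadenylase, lay at the threshold. It passed with DESeq2 (adjusted p = 0.0378) and with the last letter of the animal tag as a term (−0.93, 0.00894, edgeR). It did not pass with limma voom (adjusted p = 0.105), total-count scaling (0.282, edgeR) or without libraries under 3 M counts (0.0633, edgeR). Ttc5 passed with total-count scaling (0.47, adjusted p = 0.0287, edgeR), under which the median of all genes was 0.39.

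Enzymes of the tail tyrosine moved in both directions under PBS. Vash2, a vasohibin that removes the tyrosine, rose by 3.40 ± 0.71 (adjusted p = 0.000483, edgeR) from a low level. It had 0.4004 to 12.4 CPM (median 4.04) in DTR_PBS and 0 to 0.676 CPM (median 0.5002) in WT_PBS hearts, and these ranges overlapped. Vash1, the other vasohibin, fell by 0.91 on the log2 scale (adjusted p = 0.00178), with 16.8 ± 4.30 CPM in DTR_PBS and 31.4 ± 9.89 CPM in WT_PBS hearts. Ttl, the ligase that restores the tyrosine, fell by 0.49 on the log2 scale (adjusted p = 0.00172), with 22.6 to 30.03 CPM in DTR_PBS and 32.3 to 38.7 CPM in WT_PBS hearts, without overlap. With total-count scaling Ttl did not pass (−0.14, adjusted p = 0.335). Svbp, the partner of the vasohibins, did not pass (−0.14, adjusted p = 0.588). Under PYR, Vash2 (0.89, adjusted p = 0.454), Vash1 (−0.62, 0.0613), Ttl (−0.23, 0.183) and Svbp (−0.29, 0.311) did not pass. Vash1 passed there with DESeq2 (−0.61, adjusted p = 0.044). It did not pass with limma voom (adjusted p = 0.0873), total-count scaling (0.152, edgeR) or the tag letter as a term (0.0686, edgeR). Without DTR_PYR 4, 5 and 6, a choice made on expression, both Vash1 (−0.88, adjusted p = 0.0164, edgeR) and Ttl (−0.38, 0.0486) fell.

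Other enzymes change the tail glutamates or the acetyl mark of the lattice. Of 10 tested genes for tail glutamates and glycines, 4 fell and 0 rose under PBS, and 2 fell under PYR. Of all genes, 21.6% fell under PBS and 4.17% under PYR. Ttll5 (−0.88, adjusted p = 0.000166, edgeR) and Ttll1 (−0.94, 0.0116), which belong to glutamylase enzymes, fell, and so did Agtpbp1, which trims glutamates (−1.09, 0.000929). Ttll5 (−0.58, adjusted p = 0.0228) and Ttll1 (−0.89, 0.0454) also fell under PYR. Of the 3 acetylation enzymes the deacetylase Sirt2 fell under PBS (−0.56, adjusted p = 0.00963), and 0 passed under PYR. The calls of Ttll1 and Sirt2 under PBS did not pass with total-count scaling (adjusted p = 0.101 and 0.217).

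Proteins that bind microtubules were divided. Dclk1, a doublecortin-like kinase that bundles microtubules, rose under PBS (12.4 ± 7.07 CPM in DTR_PBS and 1.73 ± 0.567 CPM in WT_PBS hearts, log2 fold change 2.81, adjusted p = 3.1e-05, edgeR). Map1a rose by 0.83 (adjusted p = 0.003) on the log2 scale. Mapt, which encodes tau, fell under PBS (53.3 ± 17.2 CPM in DTR_PBS and 143 ± 22.0 CPM in WT_PBS hearts, −1.43, adjusted p = 3.1e-05). Under PYR Dclk1 rose (1.62, adjusted p = 0.0146) and Mapt fell (−0.71, 0.0293). Of the stathmins, which hold free dimers, Stmn1 (0.84, adjusted p = 0.022) and Stmn4 (2.21, 0.0085) rose and Stmn2 fell (−0.86, 0.0291) under PBS. Stmn4 was low, at 1.42 ± 0.930 CPM in DTR_PBS and 0.271 ± 0.151 CPM in WT_PBS hearts. Under PYR Stmn1 (0.64, adjusted p = 0.15), Stmn2 (−0.55, 0.24) and Stmn4 (1.80, 0.133) did not pass, and Stmn3 did not pass the filter in any comparison. Without DTR_PYR 4, 5 and 6, a choice made on expression, Stmn1 rose (1.14, adjusted p = 0.00759, edgeR) and Stmn2 fell (−1.43, 0.00661). With the tag letter as a term, Stmn4 rose (2.32, adjusted p = 0.0438, edgeR). It did not pass with DESeq2 (adjusted p = 0.0787), limma voom (0.393) or total-count scaling (0.112, edgeR).

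Fignl1, a severing-family enzyme with a role in DNA repair, rose under PBS (2.86, adjusted p = 7.8e-05, edgeR), and its relative Fign fell (−1.34, 0.00249). At the plus ends Mapre1, the end-binding protein EB1, rose (0.41, adjusted p = 0.0397) and Clasp2, which stabilises the ends, fell (−0.63, 0.0126). Of the gamma tubulin complex 1 of 8 genes passed, Mzt2, which fell (−0.51, adjusted p = 0.0497). Kif5b, the widely made kinesin heavy chain, rose under PBS (236 CPM in DTR_PBS and 82.7 CPM in WT_PBS hearts, 1.51, adjusted p = 0.000732) and under PYR (1.03, 0.04). The dynein heavy chain Dync1h1 (−0.45, 0.00748) and the dynactin subunit Dctn1 (−0.46, 0.0338) fell under PBS. Tbcel, Clasp2, Mzt2, Dync1h1, Dctn1, Pfdn5, Stmn2 and Tubd1 did not pass with total-count scaling, with adjusted p from 0.119 to 0.702. The calls of Dctn1, Mapre1, Mzt2, Stmn1, Stmn2 and Tbca under PBS were lost without DTR_PBS 1 and without DTR_PBS 2, and those other than Stmn1 also without single WT_PBS libraries; adjusted p reached 0.172 for Mapre1. Without DTR_PBS 2 the log2 fold change of Vash2 was 2.78. Under PYR, every call named from these lists except that of Cct5 was lost without DTR_PYR 2, and those other than Cct5 and Dclk1 also without DTR_PYR 1, with adjusted p up to 0.117. Without the libraries under 3 M counts all 10 calls under PYR named from these lists were lost, Cct5 among them (0.43, adjusted p = 0.141).

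The promoters of 8 members were in the RefSeq table for GRCm38.p6, and Tubb2b and Tubb6 were not. The 250 bases before the start of Tubb2a (chr13:34078009-34078258, minus strand) are shown, since they hold the rarest motif found among the members.
Tubb2a promoter: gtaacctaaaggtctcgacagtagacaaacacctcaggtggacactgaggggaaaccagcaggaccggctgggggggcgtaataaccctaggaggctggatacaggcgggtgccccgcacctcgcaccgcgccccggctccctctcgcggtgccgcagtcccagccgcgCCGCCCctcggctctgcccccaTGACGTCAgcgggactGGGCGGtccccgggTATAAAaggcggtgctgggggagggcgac
The capitals mark matches of TGACGTCA (the cyclic AMP response element), TATAAA (the TATA box) and GGGCGG (the GC box), searched on both strands and without overlap here. The cyclic AMP element began 59 bases before the start and the TATA box 29 bases before it. Of 32817 promoter windows of this length, 1.55% held TGACGTCA, 12.4% TATAAA and 32.7% GGGCGG. Neither TGACGTCA nor TATAAA occurred in the other 7 member windows.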

How the data were processed

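The report rests on the authors' deposited unfiltered counts for 46078 Ensembl genes in 24 libraries. HTSeq, TopHat, TopHat2 2.1.1, Bowtie2, edgeR, DESeq and the build GRCm38 are named in the submitters' processing notes, without their roles. The authors' deposited depth-normalized signal table was used only to check that its values were the filtered counts divided by 1 factor per library. The deposited filtered count table holds 15140 genes and served as an alternative gene set. Libraries were single-end, not strand-specific and polyadenylated, per the labels' protocols.

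Each title carries its own animal tag, so a library is 1 animal; replicate numbers follow accession order. The test covered the 15456 genes that exceeded 0.5 CPM in 6 or more libraries. After TMM scaling (trimmed mean of M-values), edgeR 4.0.16 was fitted (glmQLFit and glmQLFTest, R 4.3.3) over all 24 libraries, with 5 contrasts and two-sided p-values; a call needs an adjusted p (Benjamini-Hochberg, over all genes tested) under 0.05. CPM in the text is TMM-scaled. SE is the log2 fold change divided by the square root of F. Levels per kilobase use the union of exons in GENCODE vM21, which also gave the symbol of Tubb3 and the identifiers of 4 list genes. Intervals are 2 SE wide on each side. The fit was tested on simulated data, with known differences set in DTR_PBS only and the same spread of a gene in every group. No split like that among the DTR_PYR libraries was simulated, so that test does not bear on the calls under PYR. limma 3.58.1 (voom) and DESeq2 1.42.0 were alternatives. Of each microtubule list, up to 3 called genes with the smallest p are named, and all genes for the tail tyrosine, stathmins and mRNA decay. The members and lists were chosen with earlier results of these data known, so no test adjusted over a list is given.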

Additional observations from a re-analysis of the deposited data

Results flagged for a closer look

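In 60 sets of 6 libraries, 1 for each tubulin gene or summed level in each group, Dixon's test was applied to the library farthest from its group, and 6 passed; chance flags about 1 in 20 such sets. All 6 concern WT_PYR 1, which lay above the other uninjured hearts that had the drug. It had 61.8 CPM of Tuba1a, against 25.1 to 34.0 in WT_PYR 2 to 6, and 117 CPM of Tuba1b, against 31.2 to 58.2. It had 12.7 CPM of Tuba1c, against 6.47 to 8.67, and 29.3 CPM of Tubb2a, against 15.2 to 17.0. Its summed alpha level was 578 CPM per kilobase, and that of the 3 alpha genes with a tail tyrosine codon was 102 CPM per kilobase. These 6 values share reads and members, so they are not 6 separate signs. Its dividing-cell genes summed to 10.9 CPM, within the 3.66 to 23.4 CPM of its group.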

How the results depend on the processing

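Under PBS 8 members were called in every alternative and with each library left out, except that 9 were called in the U libraries alone. There Tuba4a was lower (−0.96, adjusted p = 0.0175, edgeR). Over the alternatives, the share of all genes called under PBS ran from 16.3% in the V libraries to 48.3% with total-count scaling. Under PYR 7 members were called in the main fit, where 8.06% of all genes rose and 4.17% fell. The count was 3 with limma voom (5.09% of all genes called) and 4 with only the libraries of the comparison (7.89%). It was 0 in the V libraries (0%), 1 without libraries under 3 M counts (0.647%) and 8 without DTR_PYR 4, 5 and 6 (32.5%). With each single library left out it was 4 to 7. For the drug in injured hearts the count was 0 in the main fit (0% of all genes). It was 2 with voom (11.4%), 1 in the V libraries (4.98%) and 5 without libraries under 3 M counts (13.7%). With each library left out it was 0 to 5. In the uninjured hearts and the interaction it stayed 0 in all alternatives. Of the microtubule lists, voom called 7 under PYR (13 by edgeR), and DESeq2 2 and voom 4 for the drug in injured hearts (0 by edgeR). U and V are the last letters of the animal tags, which the labels do not explain; each DTR group had 2 U and 4 V animals, and each WT group 4 U and 2 V.

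The sign turned in the following fits, and no turned value had been called; the cause was not tested. Injury under PBS turned for Tuba4a with total-count scaling (0.19), in the V libraries (0.58) and with 1 library left out (−0.27 to 0.091), and for Tuba8 in the U libraries (−0.79). Injury under PYR turned for Tuba8 in the U libraries (−0.21) and for Tuba4a in the V libraries (0.26). The drug in injured hearts turned in the U libraries for Tubb2a (0.33), Tubb2b (0.43), Tubb5 (0.076) and Tubb6 (0.086), and without DTR_PYR 4, 5 and 6 for Tuba1a (0.014), Tubb2a (0.35), Tubb2b (0.49), Tubb5 (0.17) and Tubb6 (0.25). The drug in uninjured hearts turned for Tuba1a (−0.043 in V, −0.15 to 0.19 with 1 library left out), Tuba1b (−0.061 with voom, −0.32 to 0.22 with 1 left out) and Tubb2a (0.0026 in V). It turned for Tubb3 in V (0.46), with total-count scaling (0.044), voom (0.016), the libraries of the comparison (0.0058) and 1 left out (−0.17 to 0.12). The interaction turned for Tuba4a in U (0.27), with voom (0.037) and 1 left out (−0.24 to 0.13), and for Tuba8 in U (0.58), with voom (0.099) and 1 left out (−0.26 to 0.11). It turned in U for Tubb2a (0.43) and Tubb2b (0.18), and without DTR_PYR 4, 5 and 6 for Tuba1c (0.093), Tubb2a (0.42), Tubb2b (0.076) and Tubb6 (0.11).

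Raw counts without exon length gave Tuba4a shares of 66.9% in DTR_PYR, 55.6% in DTR_PBS, 75.9% in WT_PYR and 72.4% in WT_PBS, and Tubb5 shares of 63.8% in DTR_PYR, 63.3% in DTR_PBS, 70.3% in WT_PYR and 68.6% in WT_PBS. They gave alpha over beta of 3.85 in DTR_PYR, 1.92 in DTR_PBS, 5.74 in WT_PYR and 4.65 in WT_PBS, and tail tyrosine shares of 15.7% in DTR_PYR, 29.4% in DTR_PBS, 7.79% in WT_PYR and 10.9% in WT_PBS. Among list genes that did not pass, total-count scaling turned Cnot11 (0.07) and Svbp (0.24) under PBS and Cnot11 (0.09) and Scaper (0.09) under PYR; Scaper under PYR also turned with voom (0.13) and without libraries under 3 M counts (0.26). No paired analysis was possible because replicate numbers follow accession order and pair no animals. Among the members depth limits Tubb3 most, with 4 to 41 counts in each uninjured library.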
